A study of Ovis aries with 8 samples.

Results

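Genes of the extracellular matrix and of the meninges were followed in the mediobasal hypothalamus of food-restricted and well-fed ewes. The 38 genes were chosen by name, as collagens, laminins, proteoglycans, matrix glycoproteins, the proteins that build or trim these, and the meningeal transcription factor FOXC1. Of the 33609 genes listed, 37 of these 38 had a row under their symbol, and LAMB2, a laminin chain, was not analysed here. All 37 had enough reads to be tested, among 18193 genes in all. The ewes were adults of the Ile-de-France breed, 60 food-restricted and 60 fed ad lib (called well fed), sampled over 2 years. RNA of 15 ewes, drawn at random within a feeding group, was mixed into each of 8 sequencing pools, 4 per group, so n counts pools and errors describe the spread of such mixes. The degree and length of the restriction are not given in the labels.

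The extracellular matrix is the protein and sugar scaffold around cells. Fibrillar collagens form the tension-bearing fibres of connective tissue such as the meninges, the membranes that wrap the brain. Basement membranes are thin sheets of collagen IV, laminin, nidogen and perlecan under endothelium and around the brain surface, and small leucine-rich proteoglycans bind to collagen fibres and set their width. In the brain these transcripts are known mainly from fibroblasts of the meninges, from vessel walls and from perivascular cells, while the matrix between neurons is built chiefly of lecticans, hyaluronan and tenascins.

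Levels are given as TMM-scaled CPM, that is read counts brought to one common library size, with a factor (TMM) that allows for library composition. CPM is not corrected for transcript length, so levels were compared between pools and not between genes. Each food-restricted library held 41261774 to 42964514 counted reads, and each well-fed library held 36192025 to 48125991. The first principal component of log2 CPM over all genes held 34.7% of the variance and did not follow feeding. Food-restricted pools 1 and 2 and well-fed pools 3 and 4 lay above 0 on it, and food-restricted pools 3 and 4 and well-fed pools 1 and 2 lay below 0. The scores were 31.1, 46.2, -64.2 and -9.23 in food-restricted pools 1 to 4, and -33.0, -37.7, 37.3 and 29.4 in well-fed pools 1 to 4. Food-restricted pool 4 thus lay much nearer 0 than any other pool, and its side is the least certain. The labels name no batch or year for a pool, and what parts these pools was not tested. For some genes, and as counts over the set, results are therefore also given within each side of 0, where 2 food-restricted pools stand against 2 well-fed pools. Tissue blocks of this kind mix many cell types, and fewer cells of a type cannot be told apart from less RNA per cell.

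**Figure D1:**
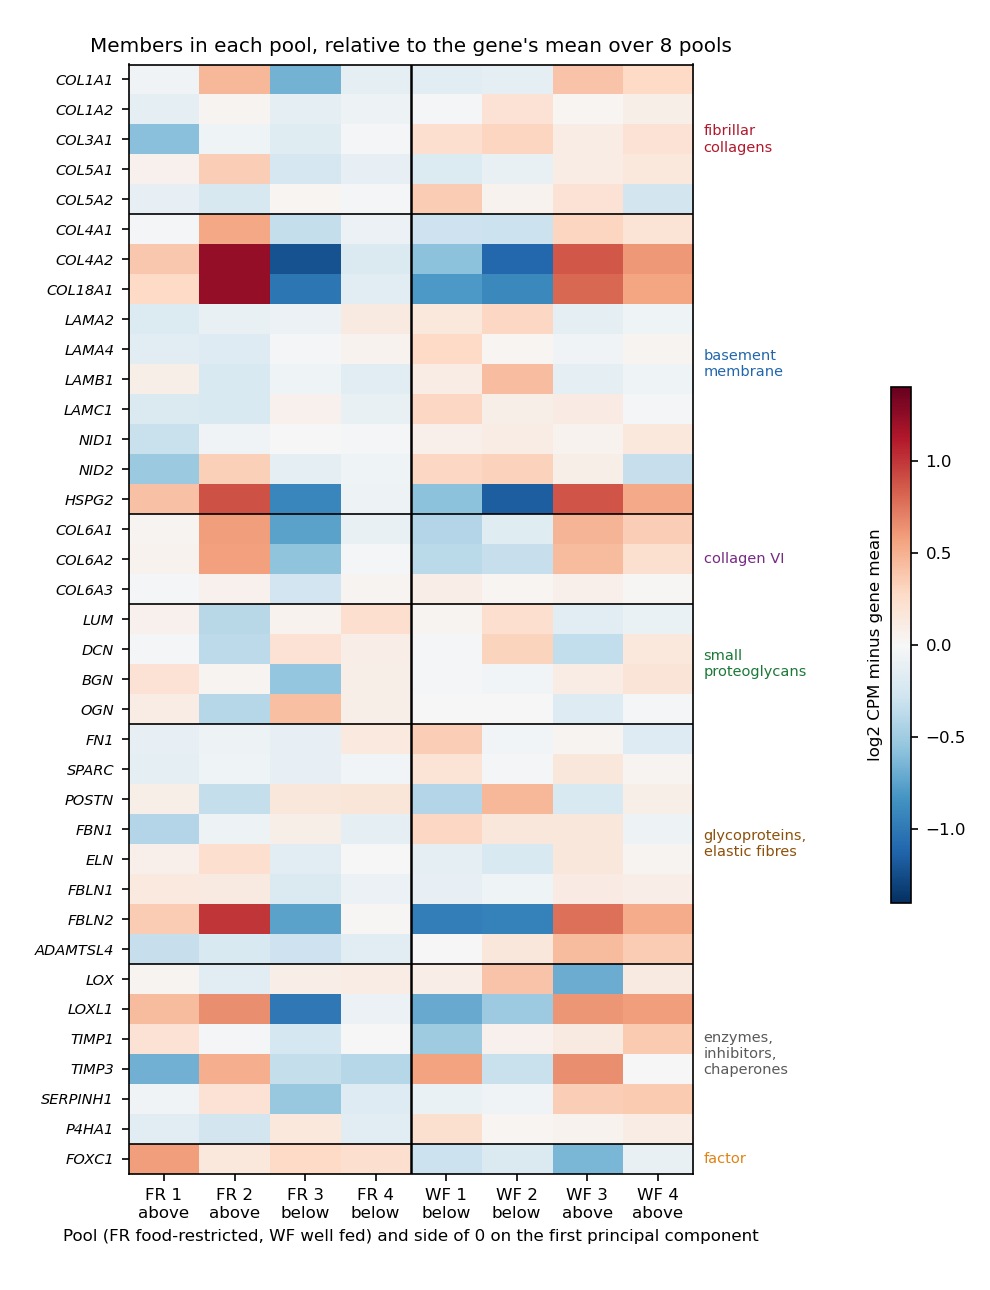
Log2 CPM of each of the 37 genes (rows, grouped by class) in each pool (columns, food-restricted at left and well fed at right), as the difference from that gene's mean over the 8 pools. COL4A2, COL18A1, HSPG2, FBLN2 and LOXL1 are high in food-restricted pools 1 and 2 and well-fed pools 3 and 4, those above 0 on the first component, while FOXC1 is higher in every food-restricted pool than in every well-fed pool.

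No gene of the set passed the test over all genes (edgeR quasi-likelihood, lowest adjusted p = 1 among the 37), and none passed in DESeq2 (0.022% of genes called) or limma voom. The background was 0.0055% of 18193 genes called, which was AGRP alone, the hunger peptide of arcuate neurons, at a log2 fold change of 1.61 (SE 0.17) in food-restricted over well-fed pools. At an unadjusted p under 0.05 stood 3 of the 37 (8.11%), against 1.7% of all tested genes, and these were ADAMTSL4, FOXC1 and COL3A1. ADAMTSL4 and COL3A1 were lower (background 1.03%) and FOXC1 was higher (background 0.671%). The fold change was below 0 for 25 of the 37 genes and above 0 for 12, with a median log2 fold change of -0.09, where all tested genes had 47.1% below 0 and a median of 0.01. The median of the 37 lay between -0.13 and -0.03 when 1 pool was left out at a time, at -0.03 without food-restricted pool 3 and -0.05 without well-fed pool 4. The feeding groups did not overlap in 5 of the 37 (13.5%), against 1.6% of all tested genes. Of these COL3A1, NID1, SPARC and ADAMTSL4 were lower in the food-restricted pools (10.8% of the 37, against 1.1% of all genes), and FOXC1 was higher (background 0.495%). For each of these 5 the exact permutation test (two-sided, on log2 CPM) returned p = 0.0286, the smallest p that 4 pools against 4 allow. Groups without overlap return this p by construction, so it restates the lack of overlap and is no further support. These genes were chosen with earlier results of the same data known, so the shares describe them and carry no test of the set.

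**Figure D2:**
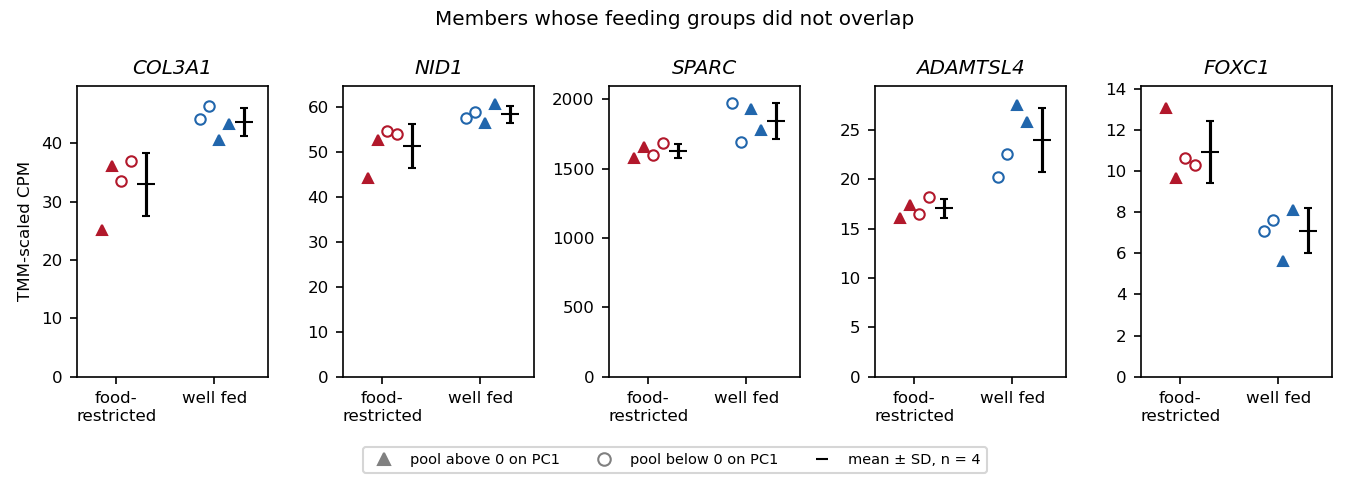
TMM-scaled CPM of COL3A1, NID1, SPARC, ADAMTSL4 and FOXC1 in each food-restricted pool (red, left) and well-fed pool (blue, right), with the mean ± SD (n = 4) beside the points. Triangles are pools above 0 on the first principal component and open circles are pools below 0; FOXC1 averaged 10.9 CPM in food-restricted pools, against 7.11 CPM in well-fed pools, and the other 4 genes were lower in every food-restricted pool.

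Among the fibrillar collagens, the type III chain stood lowest with food restriction and the other chains overlapped between the groups. COL3A1 (gene ID 100101231), the single chain of type III collagen of soft tissues and vessel walls, was at 25.2, 36.1, 33.6 and 37.0 CPM in food-restricted pools 1 to 4 and at 44.2, 46.4, 40.6 and 43.4 CPM in well-fed pools 1 to 4. Every food-restricted pool lay below every well-fed pool, and food-restricted pool 1 was lowest. The log2 fold change was -0.40 (SE 0.14; edgeR adjusted p = 1). Within the pools above 0 the food-restricted mean was 0.730 of the well-fed mean, and within those below 0 it was 0.779. Leaving out 1 pool at a time gave log2 fold changes between -0.46 and -0.29.

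Type I collagen, the main fibre of the meninges and of most connective tissue, is built from the chains of COL1A1 and COL1A2. COL1A2 (gene ID 443512) was at 131, 147, 131 and 137 CPM in food-restricted pools 1 to 4 and at 141, 165, 146 and 152 CPM in well-fed pools 1 to 4. Only food-restricted pool 2 reached the well-fed range, and the log2 fold change was -0.14 (SE 0.10). COL1A1 (gene ID 443483) was at 71.8, 103, 47.2 and 68.1 CPM in the food-restricted pools and at 66.8, 67.8, 98.6 and 90.4 CPM in the well-fed pools. Its highest pool was 2.18 times its lowest, and both extremes were food-restricted. The log2 fold change of -0.16 (SE 0.22) was -0.00079 without food-restricted pool 3, -0.36 without food-restricted pool 2, -0.24 without well-fed pool 1, -0.04 without well-fed pool 3 and -0.10 without well-fed pool 4. COL1A1 overlaps LOC114116862 in the RefSeq annotation of the assembly ARS-UI_Ramb_v3.0, so some of its reads are uncertain.

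Type V collagen starts the assembly of type I fibres, and its chains are COL5A1 and COL5A2. COL5A1 was at 108, 132, 88.2 and 95.7 CPM in food-restricted pools 1 to 4, against 91.2, 96.9, 111 and 115 CPM in well-fed pools 1 to 4 (log2 fold change 0.03, SE 0.14). COL5A2 was at 25.1, 23.2, 27.6 and 26.7 CPM in the food-restricted pools, against 34.6, 28.0, 31.3 and 22.8 CPM in the well-fed pools (log2 fold change -0.19, SE 0.15). The lowest COL5A2 pool was well-fed pool 4, so the groups overlapped. Over the 5 fibrillar chains 4 had a fold change below 0, with a median of -0.16 and a range of -0.21 to -0.13 when 1 pool was left out at a time.

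The basement membrane genes divided by protein family, a division made after their values were seen. All 6 laminin and nidogen genes had fold changes below 0 (median -0.18, between -0.23 and -0.13), and all 4 genes of the collagen core proteins and perlecan had fold changes above 0 (median 0.11, between 0.06 and 0.20). The division rested on single pools. Without food-restricted pool 2 those 4 were all below 0, at -0.13 for COL4A1, -0.36 for COL4A2, -0.30 for COL18A1 and -0.22 for HSPG2. Leaving out well-fed pool 1 put them all below 0 as well (-0.09 for HSPG2 and -0.01 for COL18A1 at the ends). So did leaving out well-fed pool 2 (-0.18 for HSPG2 and -0.03 for COL18A1). The laminins and nidogens were below 0 whichever pool was left out, but not all were lower on both sides of the component. The food-restricted mean was below the well-fed mean within both sides in 4 of these 6 genes. In LAMB1 and NID2 it was higher within the pools above 0 and lower within those below 0. LAMC1 (gene ID 101105588), the gamma chain shared by most laminins, was at 45.5, 45.4, 54.7 and 48.7 CPM in food-restricted pools 1 to 4 and at 64.0, 55.7, 57.0 and 51.7 CPM in well-fed pools 1 to 4. Only food-restricted pool 3 reached into the well-fed range (log2 fold change -0.23, SE 0.12; edgeR adjusted p = 1). NID1 (gene ID 101117471), which links the laminin and collagen IV networks, was at 44.2, 52.7, 54.7 and 54.1 CPM in the food-restricted pools and at 57.6, 59.0, 56.5 and 60.9 CPM in the well-fed pools. The groups did not overlap, with a narrow gap between 54.7 and 56.5 CPM and a log2 fold change of -0.19 (SE 0.11). Its food-restricted mean was 0.826 of the well-fed mean within the pools above 0 and 0.934 within those below 0. LAMA4, the alpha chain of vessel basement membranes, was at 42.7, 42.0, 47.2 and 49.2 CPM in food-restricted pools, against 57.6, 48.7, 46.1 and 49.1 CPM in well-fed pools (log2 fold change -0.15, SE 0.12).

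The remaining laminins and nidogens overlapped between the groups as well. LAMA2, a chain of muscle, nerve and vessel laminin, averaged 39.3 ± 3.69 CPM in food-restricted pools, against 43.0 ± 5.85 CPM in well-fed pools (SD, n = 4 each). LAMB1, a beta chain of laminin, averaged 47.5 ± 4.27 CPM in food-restricted pools, against 54.1 ± 9.75 CPM in well-fed pools. NID2, the second nidogen, averaged 5.23 ± 1.28 CPM in food-restricted pools, against 5.91 ± 1.13 CPM in well-fed pools, from 155 to 304 reads a pool. None of the 3 differed by more than the SD of the well-fed pools.

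The collagen and perlecan genes of the basement membrane varied several-fold between pools of the same feeding group. COL4A2 (gene ID 101115805), a chain of the collagen IV network, was at 70.1, 126, 23.1 and 46.8 CPM in food-restricted pools 1 to 4 and at 36.1, 25.2, 98.4 and 82.0 CPM in well-fed pools 1 to 4. Its highest pool was 5.46 times its lowest, the widest span of the 37 genes, and both were food-restricted. COL18A1, whose protein releases the vessel inhibitor endostatin, was at 65.2, 126, 26.7 and 48.5 CPM in food-restricted pools, against 30.8, 28.7, 93.6 and 79.0 CPM in well-fed pools. HSPG2, which encodes perlecan, the main heparan sulfate proteoglycan of these sheets, was at 23.9, 33.4, 9.59 and 17.1 CPM in food-restricted pools, against 12.1, 8.08, 33.3 and 25.9 CPM in well-fed pools. In all 3 genes the high pools were food-restricted 1 and 2 and well-fed 3 and 4, and their log2 fold changes for feeding were 0.14 (SE 0.52), 0.20 (SE 0.49) and 0.08 (SE 0.46) for COL4A2, COL18A1 and HSPG2. COL18A1 overlaps LOC132658605 in the same RefSeq annotation.

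COL4A1, the partner chain of COL4A2, parted the pools in the same way but less widely. It was at 64.5, 96.0, 52.2 and 62.1 CPM in food-restricted pools 1 to 4 and at 53.8, 53.4, 81.2 and 75.2 CPM in well-fed pools 1 to 4, a span of 1.84 times. The COL4A2 reads per COL4A1 read in the same pool thus differed, with CPM ratios of 1.09, 1.32, 0.443 and 0.754 in food-restricted pools 1 to 4 and of 0.671, 0.472, 1.21 and 1.09 in well-fed pools 1 to 4. The ratio averaged 0.900 ± 0.382 in food-restricted pools and 0.862 ± 0.348 in well-fed pools (SD, n = 4 each), so it did not differ by feeding beyond the spread.

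Collagen VI forms beaded filaments next to basement membranes, from chains encoded by COL6A1, COL6A2 and COL6A3. COL6A1 was at 41.8, 60.8, 24.1 and 37.8 CPM in food-restricted pools 1 to 4 and at 30.5, 35.97, 56.4 and 51.4 CPM in well-fed pools 1 to 4. COL6A2 was at 86.6, 125, 56.7 and 81.8 CPM in the food-restricted pools and at 64.2, 66.7, 114 and 97.7 CPM in the well-fed pools. These chains were high and low in the same pools, and the COL6A1 to COL6A2 ratio had a span of 1.27 times over the 8 pools. COL6A3 was at 27.7, 29.6, 23.4 and 29.1 CPM in the food-restricted pools, against 30.2, 28.7, 29.7 and 28.6 CPM in the well-fed pools. It was low in food-restricted pool 3 alone, and the COL6A1 to COL6A3 ratio spanned 2.04 times. The log2 fold changes were -0.08 (SE 0.27) for COL6A1, 0.03 (SE 0.25) for COL6A2 and -0.09 (SE 0.12) for COL6A3.

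**Figure D3:**
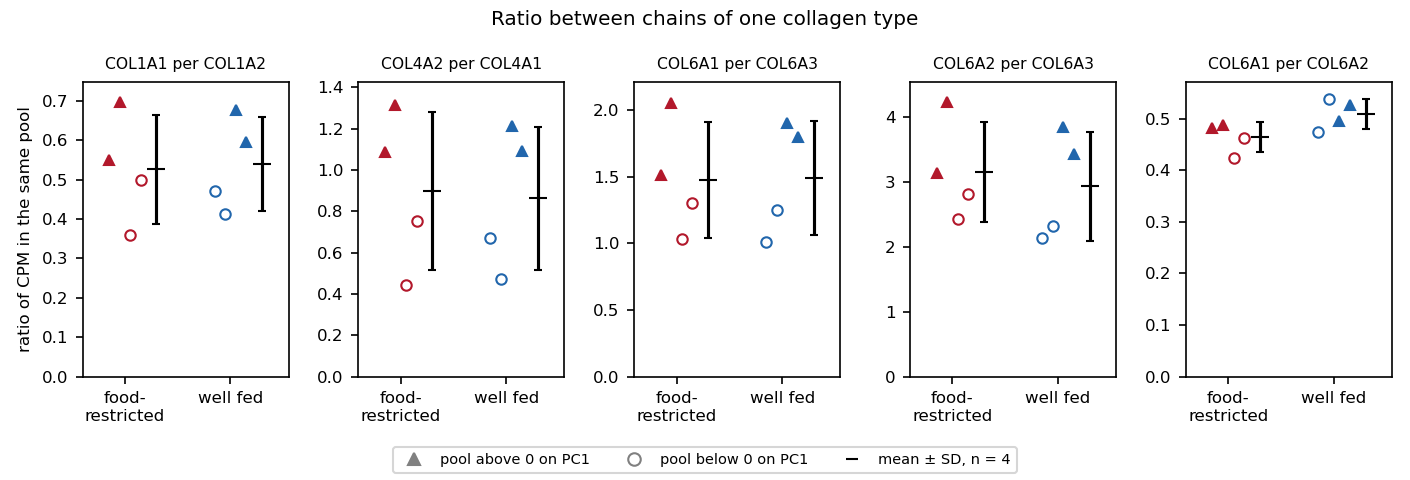
CPM of one collagen chain divided by that of another chain of the same collagen type in the same pool, for food-restricted pools (red, left) and well-fed pools (blue, right), with mean ± SD (n = 4). In the first 4 panels every pool above 0 on the first principal component (triangles) lies above every pool below 0 (open circles), as for COL4A2 per COL4A1 with means of 1.18 and 0.585, while COL6A1 per COL6A2 overlaps.

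The small proteoglycans showed no difference between the feeding groups beyond the spread between pools. DCN (decorin, gene ID 443048), which coats collagen fibres and binds transforming growth factor beta, was at 177, 140, 209 and 193 CPM in food-restricted pools 1 to 4 and at 179, 224, 142 and 200 CPM in well-fed pools 1 to 4. LUM (lumican), a keratan sulfate relative that spaces collagen fibres, was at 62.6, 45.9, 62.1 and 70.4 CPM in food-restricted pools and at 61.7, 70.5, 54.2 and 56.0 CPM in well-fed pools. Both were lowest in food-restricted pool 2 and had log2 fold changes of -0.05 (SE 0.16) for DCN and -0.01 (SE 0.15) for LUM. BGN (biglycan), a close relative of decorin, was at 117, 105, 70.04 and 108 CPM in food-restricted pools, against 100.1, 99.5, 110 and 115 CPM in well-fed pools (log2 fold change -0.09, SE 0.15). Food-restricted pool 3 held the lowest BGN level and the highest OGN level. OGN (osteoglycin), abundant in meningeal fibroblasts of the mouse, was at 22.9, 16.3, 28.6 and 22.7 CPM in food-restricted pools and at 21.3, 21.3, 18.9 and 21.0 CPM in well-fed pools (log2 fold change 0.13, SE 0.17). OGN overlaps CENPP in the RefSeq annotation, a gene at 2.03 ± 0.479 CPM in food-restricted pools, against 1.48 ± 0.564 CPM in well-fed pools (SD, n = 4 each).

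Among the glycoproteins, ADAMTSL4 had the smallest p of the 37 genes. ADAMTSL4 (gene ID 101106381), a secreted protein that binds fibrillin and promotes microfibril assembly, was at 16.1, 17.4, 16.5 and 18.3 CPM in food-restricted pools 1 to 4 and at 20.3, 22.6, 27.5 and 25.8 CPM in well-fed pools 1 to 4. The food-restricted pools lay close together and all below the well-fed pools. The log2 fold change was -0.49 (SE 0.14; rank 23 of 18193 by p, edgeR adjusted p = 1), from 688 to 1319 reads a pool. Its level was 0.629 of the well-fed mean within the pools above 0 and 0.813 within those below 0. FBN1 (fibrillin-1), the microfibril protein itself, was at 45.2, 57.5, 63.6 and 55.1 CPM in food-restricted pools, against 73.4, 67.3, 67.3 and 57.3 CPM in well-fed pools, with overlap through well-fed pool 4 (log2 fold change -0.26, SE 0.13).

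SPARC (osteonectin, gene ID 100307048), a collagen-binding protein made by astrocytes and vessel cells, was at 1577, 1657, 1598 and 1689 CPM in food-restricted pools 1 to 4 and at 1977, 1695, 1932 and 1783 CPM in well-fed pools 1 to 4. The groups did not overlap, although food-restricted pool 4 and well-fed pool 2 were nearly level. The log2 fold change was -0.18 (SE 0.08; edgeR adjusted p = 1), and the food-restricted mean was 0.871 of the well-fed mean above 0 and 0.895 below 0. POSTN (periostin), a secreted adhesion protein of fibroblasts, was at 12.5, 9.41, 13.3 and 13.4 CPM in food-restricted pools, against 8.96, 16.4, 10.2 and 12.6 CPM in well-fed pools (log2 fold change 0.01, SE 0.21). FN1 (fibronectin), a scaffold for cell attachment, averaged 43.9 ± 3.80 CPM in food-restricted pools, against 46.8 ± 7.504 CPM in well-fed pools. ELN, the elastic protein of vessel walls, averaged 21.0 ± 2.29 CPM in food-restricted pools, against 19.99 ± 2.29 CPM in well-fed pools. For POSTN, FN1 and ELN the groups overlapped and the differences were within 1 SD of the pools.

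The fibulins, which bridge elastic fibres and basement membranes, differed from each other in how they varied. FBLN1 averaged 126 ± 14.4 CPM in food-restricted pools, against 127 ± 9.99 CPM in well-fed pools (SD, n = 4 each), with a span of 1.27 times over the 8 pools. FBLN2 was at 29.0, 45.7, 13.5 and 23.1 CPM in food-restricted pools 1 to 4 and at 11.7, 11.8, 38.9 and 32.6 CPM in well-fed pools 1 to 4. It followed the same pools as COL4A2, with a span of 3.92 times and a log2 fold change of 0.23 (SE 0.45).

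Of the enzymes, inhibitors and chaperones, 5 of 6 had fold changes below 0 and none was apart between the groups. SERPINH1 (gene ID 101109208), the collagen chaperone HSP47 of the endoplasmic reticulum, was at 103, 124, 74.1 and 94.3 CPM in food-restricted pools 1 to 4 and at 101, 103, 136 and 138 CPM in well-fed pools 1 to 4. The groups overlapped when pooled (log2 fold change -0.27, SE 0.17) and not within the sides, where the food-restricted mean was 0.8289 of the well-fed mean above 0 and 0.825 below 0. P4HA1, the catalytic subunit of the prolyl hydroxylase that stabilises the collagen helix, was at 51.0, 47.5, 63.1 and 51.4 CPM in food-restricted pools, against 66.2, 58.1, 58.6 and 61.1 CPM in well-fed pools. Food-restricted pool 3 alone lay within the well-fed range (log2 fold change -0.20, SE 0.12). P4HA1 overlaps LOC106990702 and LOC132658647 in the RefSeq annotation, and LAMA4 overlaps LOC105615954.

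TIMP3, the matrix-bound inhibitor of metalloproteinases, was at 7.42, 16.9, 9.402 and 8.97 CPM in food-restricted pools 1 to 4 and at 17.6, 9.59, 18.6 and 11.8 CPM in well-fed pools 1 to 4. Food-restricted pool 2 was among the high pools, and the log2 fold change of -0.43 (SE 0.29) was -0.73 without it and -0.27 without well-fed pool 3. TIMP1, a secreted inhibitor of the same family, averaged 45.2 ± 5.77 CPM in food-restricted pools, against 47.0 ± 10.98 CPM in well-fed pools (SD, n = 4 each). Both inhibitor genes overlap neuronal synapsin genes in the RefSeq annotation. SYN1, which overlaps TIMP1 together with ARAF and ZNF81, was at 366 ± 18.1 CPM in food-restricted pools, against 384 ± 33.0 CPM in well-fed pools, and SYN3, which overlaps TIMP3, was at 1.72 ± 0.991 and 1.43 ± 0.651 CPM in food-restricted and well-fed pools. Without the strand setting of the counting, the share of such reads is uncertain.

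The crosslinking enzymes LOX and LOXL1, which join collagen and elastin chains, gave no difference by feeding. LOXL1 was at 37.0, 42.7, 13.6 and 25.5 CPM in food-restricted pools 1 to 4 and at 16.6, 19.0, 41.6 and 40.8 CPM in well-fed pools 1 to 4, with a log2 fold change of 0.01 (SE 0.38). Its high and low pools were on the same sides as those of COL4A2. LOX averaged 2.34 ± 0.189 CPM in food-restricted pools, against 2.36 ± 0.679 CPM in well-fed pools (SD, n = 4 each), from 68 to 117 reads a pool.

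FOXC1 (gene ID 101102186), a forkhead transcription factor needed for meningeal development in the mouse and also active in vessel mural cells, had the largest fold change of the 37 genes, above 0. It was at 13.1, 9.65, 10.6 and 10.3 CPM in food-restricted pools 1 to 4 and at 7.10, 7.62, 5.61 and 8.11 CPM in well-fed pools 1 to 4. Every food-restricted pool was above every well-fed pool, from 403 to 559 reads against 269 to 323 reads. The log2 fold change was 0.62 (SE 0.17; rank 24 of 18193 by p, edgeR adjusted p = 1), or 1.54-fold. The ratio was 1.66 within the pools above 0 and 1.42 within those below 0, and leaving out 1 pool at a time gave log2 fold changes between 0.53 and 0.69. Its paralogue FOXC2 averaged 2.04 CPM in food-restricted pools, against 2.204 CPM in well-fed pools, with a log2 fold change of -0.11 (SE 0.31).

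**Figure D4:**
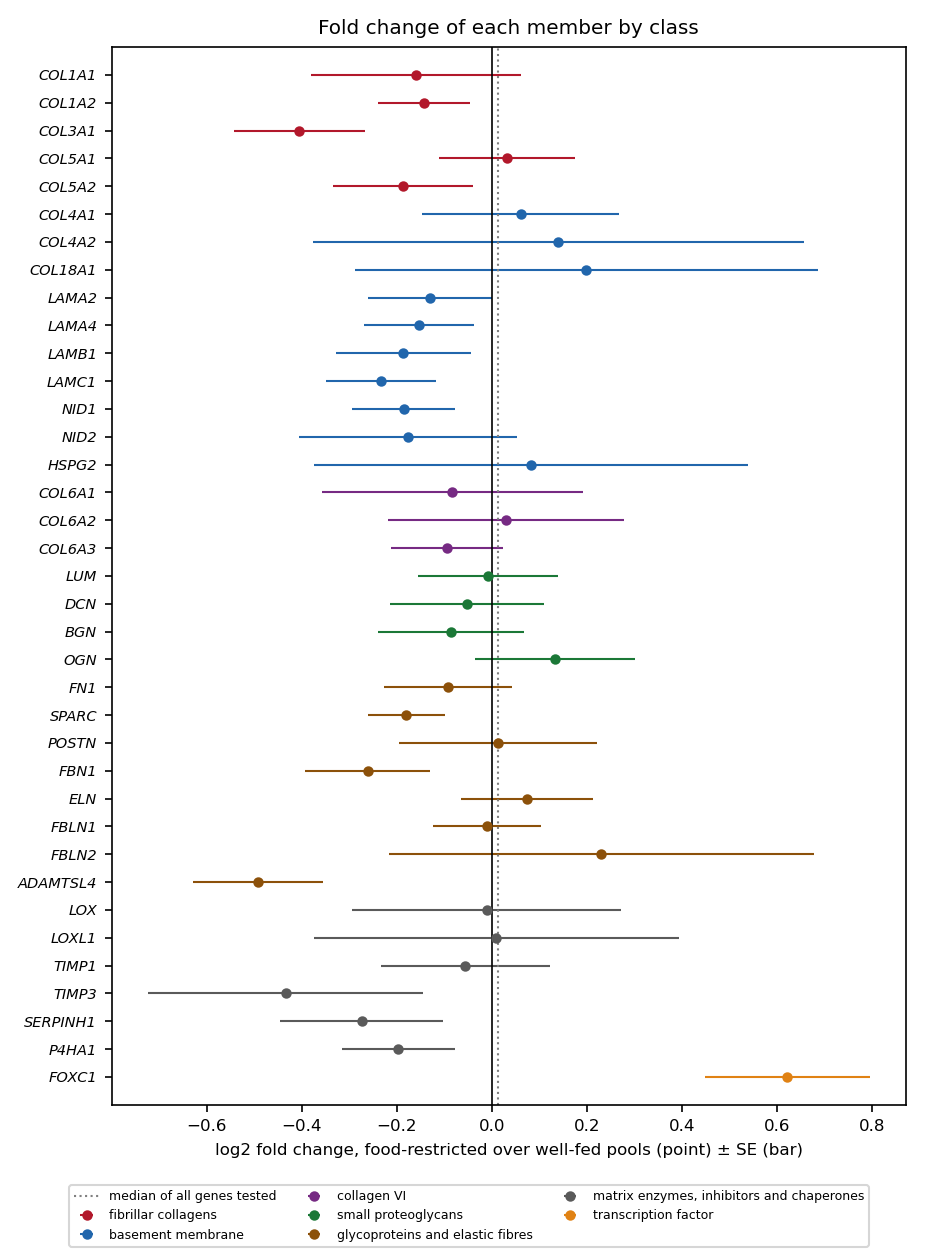
Log2 fold change of food-restricted over well-fed pools (points) with SE (bars) for each of the 37 genes, coloured by class; the dotted line is the median of all tested genes (0.01). The points of the laminins and nidogens lie left of 0, with the bars of LAMA2 and NID2 reaching past it, and those of COL4A2, COL18A1, HSPG2 and FBLN2 lie right of 0 with bars that span it. ADAMTSL4 and FOXC1 are the extremes at -0.49 and 0.62.

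Set side by side, the fibrillar collagens had a median log2 fold change of -0.16 (4 of 5 below 0), the basement membrane genes -0.14 (6 of 10 below 0) and the small proteoglycans -0.03 (3 of 4 below 0). When 1 pool was left out at a time, the median lay between -0.21 and -0.13 for the fibrillar collagens, between -0.18 and -0.06 for the basement membrane and between -0.08 and 0.09 for the small proteoglycans. The basement membrane median was -0.06 without food-restricted pool 1, and that of the small proteoglycans was 0.09 without food-restricted pool 2, 0.06 without well-fed pool 2, -0.01 without food-restricted pool 3, -0.08 without food-restricted pool 4 and -0.05 without well-fed pool 3. Collagen VI had a median of -0.08, which was 0.10 without food-restricted pool 3, 0.08 without well-fed pool 3, 0.01 without well-fed pool 4, -0.04 without food-restricted pool 4 and -0.17 without food-restricted pool 2. The differences between classes were not tested.

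Summed levels, which the most abundant genes of a class weigh most, were compared for the fibrillar collagens, small proteoglycans and basement membrane. The fibrillar collagens again stood lowest of these 3 with food restriction, and the small proteoglycans and basement membrane were nearly level. The 5 fibrillar chains summed to 361, 441, 328 and 364 CPM in food-restricted pools 1 to 4 and to 378, 404, 427 and 423 CPM in well-fed pools 1 to 4. The 4 small proteoglycans summed to 380, 307, 370 and 394 CPM in food-restricted pools and to 362, 416, 325 and 392 CPM in well-fed pools. The 10 basement membrane genes summed to 449, 610, 360 and 422 CPM in food-restricted pools and to 418, 403, 555 and 516 CPM in well-fed pools. The mean sum in food-restricted pools was 0.915 of that in well-fed pools for the fibrillar collagens, 0.970 for the small proteoglycans and 0.973 for the basement membrane. The groups overlapped in all 3 sums.

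The split of the pools that cut across feeding was wider for many matrix genes than any difference by feeding. In 12 of the 37 genes (32.4%) all 4 pools above 0 on the first principal component were higher than all 4 below 0, against 14.2% of all tested genes. No gene of the set was lower in all pools above 0, against 8.93% of all tested genes. The 12 were COL1A1, COL5A1, COL4A1, COL4A2, COL18A1, HSPG2, COL6A1, COL6A2, ELN, FBLN1, FBLN2 and LOXL1. COL4A2 was 2.81 times as high in food-restricted pools 1 and 2 as in food-restricted pools 3 and 4, and 2.94 times as high in well-fed pools 3 and 4 as in well-fed pools 1 and 2. The same ratios were 2.55 in food-restricted and 2.90 in well-fed pools for COL18A1, 2.14 in food-restricted and 2.93 in well-fed pools for HSPG2, 2.04 in food-restricted and 3.04 in well-fed pools for FBLN2, and 2.04 in food-restricted and 2.31 in well-fed pools for LOXL1. Of the 12, 3 had a log2 fold change for feeding below 0 (median 0.05), and of the other 25 genes 22 did (median -0.15). The food-restricted mean was lower on both sides in 2 of the 12 and in 17 of the 25. All tested genes were not divided in this way, so these counts have no background share. The component was computed from these same libraries, so these ratios and counts are descriptive.

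**Figure D5:**
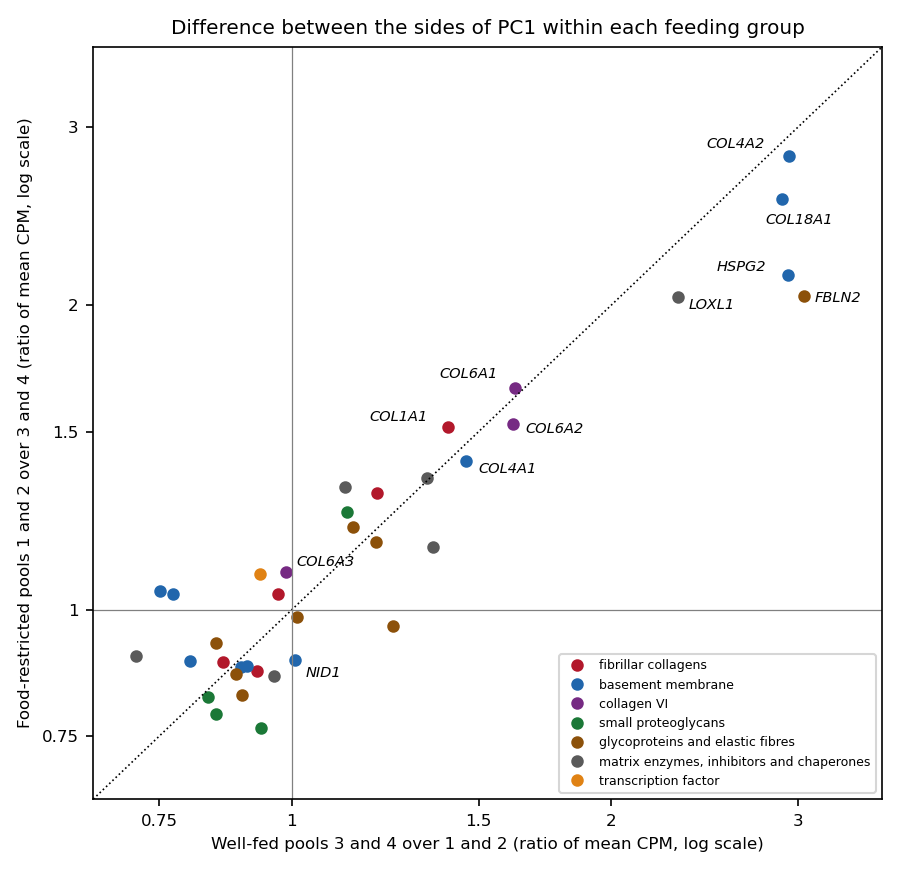
Ratio of mean CPM between pools above and below 0 on the first principal component, within the food-restricted pools (vertical axis) and within the well-fed pools (horizontal axis), on log scales, for the 37 genes coloured by class. COL4A2, COL18A1, HSPG2, FBLN2 and LOXL1 lie at ratios above 2 in both feeding groups, while most laminins and proteoglycans lie near or under 1; the dotted line marks equal ratios.

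Some chains of one collagen type differed from each other in this split. COL1A1 was 1.51 times as high above 0 as below 0 among food-restricted pools and 1.404 times among well-fed pools, where COL1A2 was at 1.04 and 0.971 times. The COL1A1 to COL1A2 ratio was 0.550, 0.696, 0.359 and 0.498 in food-restricted pools 1 to 4 and 0.472, 0.412, 0.677 and 0.596 in well-fed pools 1 to 4. By feeding the ratio averaged 0.526 ± 0.139 in food-restricted pools and 0.539 ± 0.120 in well-fed pools (SD, n = 4 each). The COL6A1 to COL6A3 ratio averaged 1.47 ± 0.435 in food-restricted pools and 1.49 ± 0.429 in well-fed pools, with means of 1.82 in pools above 0 and 1.15 in pools below 0. In these ratios the split by side was the larger one, and the feeding groups overlapped. The COL5A1 to COL5A2 ratio, not drawn, averaged 4.66 in pools above 0 and 3.22 in pools below 0, and its sides overlapped.

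Adding the side of the component to the edgeR fit as a block gave a smaller SE for 36 of the 37 genes, by unequal amounts. The SE of COL4A2 was 0.21 in place of 0.52, and that of SERPINH1 0.10 in place of 0.17, while those of FOXC1 (0.17) and SPARC (0.08) were the same to 2 decimals and that of LOX was 0.30 in place of 0.28. The side was taken from these same libraries, so smaller SEs follow in part from that choice and the p-values here are descriptive. With the block 7 of the 37 genes (18.9%) stood at an unadjusted p under 0.05, against 4.49% of all tested genes. In order of p they were ADAMTSL4, FOXC1, COL3A1, SERPINH1, FBN1, LAMC1 and SPARC. None of them passed over all genes (lowest edgeR adjusted p = 0.794), where 0.033% of tested genes did. Within both sides the food-restricted mean was below the well-fed mean in 19 of the 37 genes (51.4%), against 25.6% of all tested genes, and above it in 6 (16.2%), against 30.5% of all tested genes.

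Other genes of matrix biology were read from lists by role, and none of the 125 tested passed over all genes in edgeR. At an unadjusted p under 0.05 stood 1 of the 125 (COL14A1), against 1.7% of all tested genes. The collagen-processing list had 18 of 22 tested members below 0 (81.8%, against 47.1% of all tested genes) and a median log2 fold change of -0.11. Its smallest p below 0 was that of P3H4, a partner of lysyl hydroxylase, at -0.26 (SE 0.13), and its smallest above 0 was that of the prolyl hydroxylase relative P3H3 at 0.10 (SE 0.28). The 30 other collagens had 16 above 0 and a median of 0.01. In 1 of the 30 (3.33%), COL14A1, every food-restricted pool lay below every well-fed pool, against 1.1% of all tested genes. COL14A1, a fibre-associated collagen, was at 14.8 ± 3.78 CPM in food-restricted pools, against 20.6 ± 1.88 CPM in well-fed pools (SD, n = 4 each), with no overlap (log2 fold change -0.47, SE 0.19; edgeR adjusted p = 1). COL8A2, of short-chain collagen networks, was at 0.26 (SE 0.20).

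The lists of further structural genes had medians between -0.01 and 0.11. The 7 other laminins and agrin had a median of 0.03, with LAMA1 at -0.11 (SE 0.14) and LAMA5 at 0.28 (SE 0.34). The 10 genes of the matrix around neurons had a median of -0.01, with the lectican ACAN at -0.23 (SE 0.24) and the link protein HAPLN3 at 0.38 (SE 0.32). The 6 other small proteoglycans had a median of 0.11, with PRELP at -0.20 (SE 0.11) and ASPN at 0.50 (SE 0.29).

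Receptors, proteases and growth factor genes had medians between -0.06 and 0.02. The 15 matrix receptors had a median log2 fold change of 0.02, with the fibronectin receptor chain ITGA5 at -0.24 (SE 0.18) and ITGA8 at 0.24 (SE 0.20). The 18 proteases and inhibitors had a median of -0.06, with the inhibitor TIMP2 at -0.17 (SE 0.12) and the aggrecan-cleaving ADAMTS4 at 0.52 (SE 0.29). The 17 genes of the transforming growth factor beta axis had a median of -0.03, with the latent carrier LTBP1 at -0.17 (SE 0.12) and the receptor TGFBR1 at 0.27 (SE 0.14).

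Markers of the cells that make this matrix were present in every list, and none of their markers was at 0 in all pools. The 15 meningeal fibroblast markers with a row, of 16 listed, summed to between 281 and 319 CPM in food-restricted pools and between 290 and 345 CPM in well-fed pools. Among them ALDH1A2, the retinoic acid enzyme of meninges, had a log2 fold change of -0.24 (SE 0.11; edgeR adjusted p = 1), and ITIH5 was at 0.19 (SE 0.13). The 12 pericyte and smooth muscle markers summed to between 383 and 480 CPM in food-restricted pools and between 408 and 471 CPM in well-fed pools, with KCNJ8, a pericyte potassium channel, at -0.35 (SE 0.16) and RGS5 at 0.11 (SE 0.16). Of these 12 markers 2 (16.7%) were lower in every food-restricted pool than in any well-fed pool, against 1.1% of all tested genes. They were KCNJ8 and ABCC9, the regulatory subunit of such channels, named after its values were seen, at 2.79 ± 1.14 CPM in food-restricted pools, against 4.53 ± 0.738 CPM in well-fed pools (SD, n = 4 each; log2 fold change -0.70, SE 0.33). The 13 endothelial markers summed to between 404 and 482 CPM in food-restricted pools and between 393 and 450 CPM in well-fed pools, with SLCO1C1 at -0.33 (SE 0.19) and SLC2A1 at 0.16 (SE 0.14). All 3 sums overlapped between the feeding groups. The median log2 fold change was 0.06 for the meningeal fibroblast markers, with 9 of 15 above 0. It was -0.03 for the pericyte and smooth muscle markers (5 of 12 above 0) and 0.004 for the endothelial markers (7 of 13 above 0).

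Markers listed for choroid plexus and pituitary were also detected, and whether these tissues were part of the blocks was not tested. The 8 choroid plexus markers summed to between 66.5 and 97.8 CPM in food-restricted pools and between 54.7 and 89.7 CPM in well-fed pools, with KL at -0.43 (SE 0.21) and TTR at 0.57 (SE 0.31). The 9 pituitary markers summed to between 1274 and 1811 CPM in food-restricted pools and between 1099 and 1984 CPM in well-fed pools, with TSHB at -0.53 (SE 0.34) and GH at 0.87 (SE 0.41). The 6 arcuate genes that mark the labelled tissue were all detected, with the neurokinin B gene TAC3 at -0.35 (SE 0.13) beside AGRP. The 6 astrocyte markers summed to between 7488 and 8908 CPM in food-restricted pools and between 8009 and 8957 CPM in well-fed pools, with GFAP at -0.13 (SE 0.10) and SOX9 at 0.18 (SE 0.13). The 6 microglial markers summed to between 381 and 411 CPM in food-restricted pools and between 355 and 438 CPM in well-fed pools, with AIF1 at -0.07 (SE 0.15) and C1QA at 0.20 (SE 0.26). Across the sides of the component, the 6 oligodendrocyte markers summed to between 4124 and 5238 CPM above 0 and between 3653 and 4330 CPM below 0, with log2 fold changes for feeding of -0.05 (SE 0.12) for MOBP and 0.18 (SE 0.13) for CNP. The 5 neuronal markers with a row summed to between 2009 and 2237 CPM above 0 and between 2156 and 2595 CPM below 0, and the arcuate genes to between 550 and 774 CPM above 0 and between 255 and 535 CPM below 0. For feeding, the neuronal genes STMN2 and SNAP25 were at -0.00055 (SE 0.12) and 0.10 (SE 0.10). Meningeal markers overlapped between the sides, with sums between 292 and 345 CPM above 0 and between 281 and 327 CPM below 0. So did pericyte and smooth muscle markers, between 419 and 480 CPM above 0 and between 383 and 445 CPM below 0. Endothelial markers summed to between 415 and 482 CPM above 0 and between 393 and 441 CPM below 0, again with overlap. The part of these cell types in the split of the matrix genes was not tested.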

How the data were processed

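RNA from 8 pools of mediobasal hypothalamus, 4 per feeding group, was extracted with TriReagent and made into stranded TruSeq mRNA libraries, per the labels. The authors deposited 1 table of unnormalized read counts by gene, and every sample column was mapped. The submitters' processing notes name, in no stated order, TopHat2 2.1.1, Bowtie2 2.3.5.1, featureCounts 2.0.0, SAMtools 1.9, bcl2fastq 2.20 and FastQC; for genome build and strand setting, nothing is given in the sources used here. Whether an ewe entered more than 1 pool is not stated, so p-values measure the spread between these pools.

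The fit was made with edgeR 4.0.16 under R 4.3.3: filterByExpr (minimum count 10, minimum total 15), TMM, and the quasi-likelihood F test without covariates. P-values were adjusted over 18193 genes by Benjamini-Hochberg, with a threshold of 0.05. The SE was taken as |log2 fold change| over the root of F. Principal components and exact tests used log2 CPM with a prior count of 2. DESeq2 1.42.0 and limma voom (limma 3.58.1) were alternatives, and the edgeR script was tested on simulated data. Summaries and figures used Python 3.11.15. Of the gene IDs, 83.6% were in the RefSeq table, which replaced 412 LOC names.

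Pairs of pools within a group differed beyond sampling noise, with chi-square over degrees of freedom of 25.0 to 169. Members and lists were chosen with earlier results of these data known. The naming rule took all fibrillar collagens, small proteoglycans and collagen VI chains, in other classes the 3 genes with the smallest p and the 1 with the largest, and in lists the smallest p in each direction. Other genes given pool by pool were chosen after their values were seen.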

Additional observations from a re-analysis of the deposited data

Results flagged for a closer look

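Of 74 groups of 4 pools checked (37 genes in 2 feeding groups), 1 held a pool far from the others, where chance gives about 1 in 20. OGN was at 18.9 CPM in well-fed pool 3, while the other well-fed pools lay between 21.0 and 21.3 CPM; the gap was 0.840 of the group's range.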

How the results depend on the processing

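The number of genes called over all genes was 1 by edgeR. It was 0 with the replicate number as a block, 6 with the component side blocked, 4 in DESeq2, and 0 to 0 when each pool was left out in turn. None of the 37 matrix genes was called under any of the 17 alternatives (lowest adjusted p = 0.794). Pools with the same replicate number did not deviate together (correlations between -0.42 and -0.21), so the number is not taken to pair them. The number of matrix genes below 0 lay between 24 and 26 under the 9 other alternatives and between 21 and 30 with a pool left out.

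Of 629 single-gene values, 51 had the opposite sign to the value reported, in 18 genes, and 19 genes kept their sign throughout. Apart from left-out pools, LOX was at 0.033 with the replicate block, 0.0070 with the side as a block and 0.068 in limma voom, and LOXL1 was at -0.00034 with upper-quartile scaling. With a pool left out, log2 fold changes ranged from -0.073 to 0.11 for COL5A1, -0.13 to 0.19 for COL4A1, -0.36 to 0.49 for COL4A2, -0.30 to 0.54 for COL18A1, -0.22 to 0.46 for HSPG2, -0.32 to 0.10 for COL6A1, -0.17 to 0.21 for COL6A2, -0.077 to 0.12 for LUM, -0.14 to 0.069 for DCN, -0.17 to 0.051 for BGN, -0.00070 to 0.28 for OGN, -0.16 to 0.020 for FN1, -0.11 to 0.20 for POSTN, -0.056 to 0.053 for FBLN1, -0.10 to 0.58 for FBLN2, -0.18 to 0.14 for LOX, -0.20 to 0.25 for LOXL1 and -0.20 to 0.069 for TIMP1. The cause was not tested. Among genes that kept their sign, values moved by over 1.5 times for COL1A1 (-0.36 to -0.00079), COL5A2 (-0.29 to -0.09), LAMA2 (-0.18 to -0.05), LAMA4 (-0.18 to -0.08), LAMB1 (-0.24 to -0.06), NID1 (-0.22 to -0.11), NID2 (-0.32 to -0.04), COL6A3 (-0.11 to -0.02), FBN1 (-0.33 to -0.17), ELN (0.02 to 0.16), TIMP3 (-0.73 to -0.27), SERPINH1 (-0.38 to -0.16) and P4HA1 (-0.29 to -0.13). LOX had the fewest reads of the 37 genes.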
